A study of Mus musculus with 16 samples.

Results

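The genes that make, break down and read cyclic AMP were examined for binding of the EWSR1::ATF1 fusion in mouse clear cell sarcoma (CCS). They comprised 47 of the 21938 protein-coding genes on the mouse chromosomes in GENCODE vM21, taken from a fixed list of gene names: 10 adenylyl cyclases (Adcy), 18 phosphodiesterases (Pde), 9 subunits and inhibitors of protein kinase A (PKA) and 10 A-kinase anchoring proteins (Akap). For each gene the presence, number and best score of V5, Pol2 and H3K27ac peaks were taken at its promoters and in its body. A promoter peak overlapped by at least 1 bp the window within 3 kb of any annotated transcription start site (TSS) of the gene, and a body peak overlapped the gene span but none of these windows.

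Adenylyl cyclases convert ATP to cyclic AMP (cAMP) when receptors coupled to the stimulatory G protein are engaged, and phosphodiesterases hydrolyse cAMP or cyclic GMP. The cAMP releases the catalytic subunits of PKA from the regulatory subunits, and anchoring proteins hold the kinase at particular places in the cell. PKA phosphorylates CREB, ATF1 and CREM, which bind the palindromic cAMP response element TGACGTCA. In clear cell sarcoma the EWSR1::ATF1 fusion carries the DNA-binding end of ATF1 without the part that PKA acts on, so the fusion protein is not under the usual control by cAMP.

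The tumours were labelled by genotype as EWSR1::ATF1 and came from mice in a mixed 129/SvJ and C57Bl/6 background, in which a V5-tagged fusion was expressed from the Rosa26 locus after injection of TATCre, a cell-permeable Cre recombinase, into the hindlimb. The labels give 4 groups of 4 samples each (V5, pol2, H3k27ac and Input, 16 in all), every group carries the fusion, and neither a tumour without it nor normal tissue was analysed here. V5 marks the fusion, Pol2 phosphorylated RNA polymerase II, H3K27ac active promoters and enhancers, and Input unenriched chromatin that served the authors as background. Each antibody has 1 list of peaks rather than 1 per sample, and which samples entered it is not given in the sources used here, so there are no replicate values, and every value describes the lists rather than a spread between tumours.

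The lists held 10665 V5, 20375 Pol2 and 27552 H3K27ac peaks, with median scores of 230, 246 and 212. The V5 list is shorter than the set of fusion sites described by the study, so a gene without a V5 peak here may have had one in the fuller set. The score is a whole number from the authors whose scale is not given in the sources used here, so scores are compared within a list only, and rank 1 is the highest. Of 8 melanocytic and neural crest markers of CCS, 2 (Mitf and Pmel) had a Pol2 promoter peak and 3 an H3K27ac promoter peak. Pol2 promoter peaks were also present at 2 of 8 skeletal muscle markers (Mylpf and Tnnt3), 2 of 5 fibroblast, 1 of 4 endothelial and 1 of 5 immune markers. H3K27ac promoter peaks were at 1 of the 8 muscle, 4 of the 5 fibroblast, 3 of the 4 endothelial and 4 of the 5 immune markers. A Pol2 or H3K27ac peak in bulk tumour therefore cannot be assigned to the tumour cells, whereas the V5 tag was carried by the fusion alone.

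Fusion binding at these genes is shown first by its sequence. V5 peaks were searched on both strands for the palindrome TGACGTCA, for the AP1 motif TGAGTCA, for any other TGANNTCA, and for strings of more than 4 TGA or TCA units spaced by at most 5 bp. The palindrome was present in 5 of the 24 V5 promoter peaks of the 47 genes, a share of 20.8%, beside 14% of the 3595 V5 promoter peaks of all coding genes. The promoter peaks had a median width of 780 bp in the 47 genes and 710 bp in coding genes, so the lengths searched differed. The 5 copies are shown because they are the canonical response element within the fusion's own promoter peaks. Each is written 5′ to 3′ on the strand of its gene (mm10), 30 bases long with the palindrome in capitals.
Adcy2, chr13:68997899-68997928 (minus strand): gtggcagactaTGACGTCActggccctctc
Adcy3, chr12:4201669-4201698 (plus strand): tggacacaaacTGACGTCAgcggcaggtcc
Pde4d, chr13:109684671-109684700 (plus strand): acacatacacaTGACGTCAcggataaccac
Pde7a, chr3:19311402-19311431 (minus strand): gcgcggcgtcgTGACGTCAcggtggcggcg
Prkar1a, chr11:109650889-109650918 (plus strand): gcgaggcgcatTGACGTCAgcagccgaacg

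The Pde7a and Prkar1a copies lay 95 and 17 bp upstream of the nearest TSS, whereas the Adcy3 and Pde4d copies were 1584 and 1470 bp upstream of TSSs inside the gene. The Adcy2 copy lay 1627 bp downstream of the only TSS, in an intron. All 5 were within 200 bp of the middle of their peak. In the RefSeq promoter sequences (GRCm38.p6, 250 bases upstream to 50 downstream of a start), 39 of the 47 genes could be matched, and only Prkar1a held the palindrome there, beside 436 of 16522 coding genes (2.64%). Of those 436 genes, 280 (64.2%) had a V5 promoter peak. The Pde7a copy, placed by a GENCODE TSS, lay outside the matched RefSeq sequences, so this count does not mean that Pde7a lacks a copy near a start.

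At promoters, the fusion was found at 16 of the 47 genes (34%), beside 16.6% of all coding genes. By subgroup it was 3 of 10 cyclases, 7 of 18 phosphodiesterases, 4 of 9 PKA genes, both catalytic subunits among them, and 2 of 10 anchoring proteins. Pol2 promoter peaks were present at 33 of 47 genes (70.2%), beside 53.5% of coding genes, and H3K27ac at 40 of 47 (85.1%), beside 58.6%. All 3 signals were present at 15 genes (31.9%), beside 15.9%. No test was made of these shares, because the genes were listed with results of these data known.

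**Figure D1:**
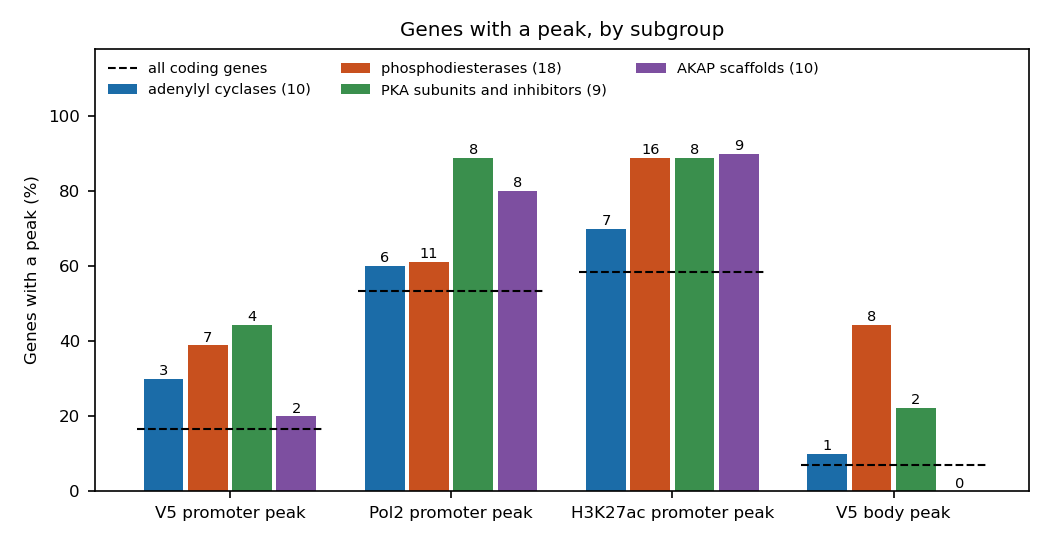
Share of genes with a peak (%, y axis) for 4 kinds of peak (x axis), by subgroup, with the number of genes above each bar, the subgroup size in the legend, and a dashed line for all coding genes. V5 promoter peaks run from 2 of 10 anchoring proteins to 4 of 9 PKA genes against 16.6% of coding genes, and V5 body peaks from 0 of 10 anchoring proteins to 8 of 18 phosphodiesterases against 7.10%.

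The 47 genes had more annotated TSSs than coding genes in general, with a median of 6 against 3, and each TSS adds a window in which a peak can fall. With 6 or more TSSs, 9 of 25 members had a V5 promoter peak, beside 28.2% of coding genes of that kind. With 3 to 5 TSSs it was 4 of 14, beside 17.1%, and with 1 or 2 TSSs it was 3 of 8, beside 8.40%. Among genes with both Pol2 and H3K27ac at promoters, 15 of 33 members had V5 (45.5%), beside 30.4% of coding genes. The share of members lay above that of coding genes in each of these classes, by the least margin in genes with 6 or more TSSs. These classes were chosen after the values were seen.

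**Figure D2:**
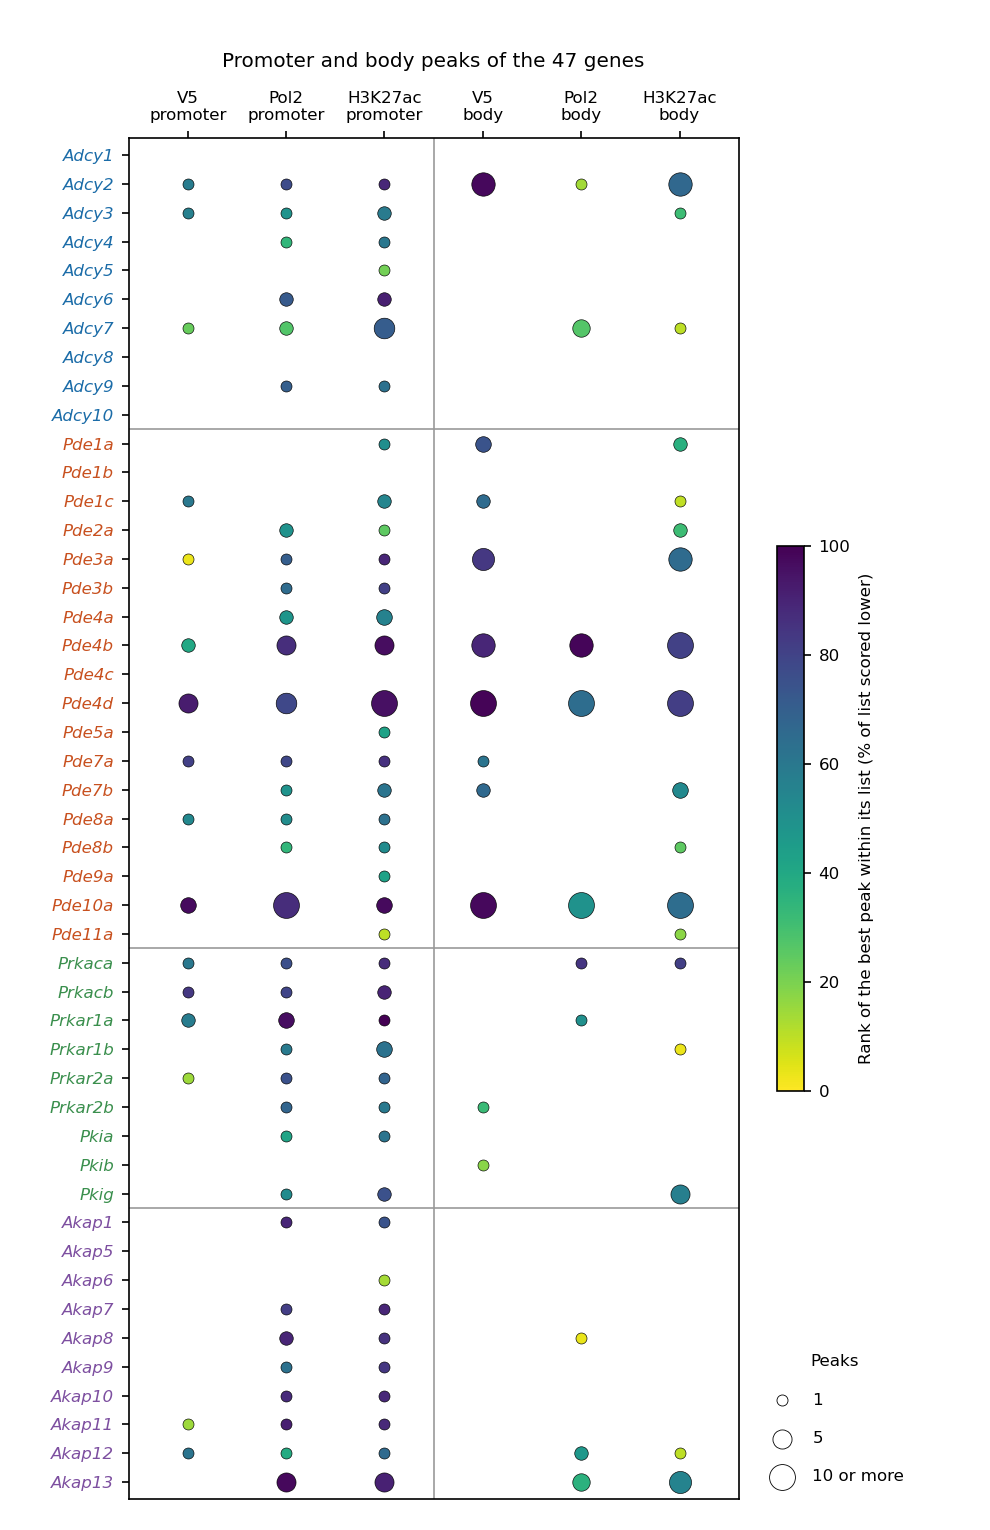
Peaks of each of the 47 genes (rows, coloured by subgroup) in the V5, Pol2 and H3K27ac lists at promoters and in the body (columns). Dot size is the number of peaks and dot colour the rank of the best of them, as the percentage of that list with a lower score. Pde4d and Pde10a carry large dark V5 dots in the body, and no anchoring protein has a V5 body dot.

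Among the adenylyl cyclases, V5 was found at the promoters of Adcy2, Adcy3 and Adcy7, 3 of 10 genes. Adcy2, a cyclase stimulated by G protein βγ subunits and best known from brain, had a V5 score of 277 (rank 4438), Pol2 of 1022 and H3K27ac of 1588 at its single start. The window around its palindrome is shown as that of the highest scored V5 promoter peak of the cyclases (chr13:68997870-68997957, minus strand, mm10, in capitals the palindrome).
Adcy2: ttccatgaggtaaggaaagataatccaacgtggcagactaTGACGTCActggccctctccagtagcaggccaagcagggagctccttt
The V5 peaks of Adcy3 (score 265) and Adcy7 (114) lay not at the first TSS but 68.6 and 8.68 kb into the gene, and overlapped H3K27ac of 91 and 477 without Pol2. Both genes had Pol2 promoter peaks of 223 and 77 at other TSSs, so they count as having all 3 signals as genes but not at a single site. The Adcy3 peak also lies within the span of Cenpo, a gene of the inner kinetochore, and the start nearest to it belongs to a transcript that is not annotated as coding.

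The other 7 cyclases had no V5 promoter or body peak. Adcy4, Adcy6 and Adcy9 had Pol2 and H3K27ac without V5, with Pol2 scores of 98, 820 and 760. Adcy5, known from heart and striatum, had H3K27ac alone, with a score of 74. Adcy1, Adcy8 and Adcy10, of which the first and second are calcium-stimulated cyclases of neurons and the last is the soluble cyclase activated by bicarbonate, had no promoter peak in any list. The nearest V5 peak to a TSS was 157339 bp away for Adcy1 and 475411 bp for Adcy8.

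Among the phosphodiesterases, 7 of 18 genes had V5 at a promoter: Pde1c, Pde3a, Pde4b, Pde4d, Pde7a, Pde8a and Pde10a. By substrate these were 4 of the 8 enzymes specific for cAMP, 3 of the 8 that hydrolyse both nucleotides and 0 of the 2 specific for cGMP (Pde5a and Pde9a). Pde10a, which hydrolyses both nucleotides and is abundant in striatum, had the highest V5 promoter score of all 47 genes, 2615 (rank 294). Its peak lay at the first TSS with Pol2 of 488 and H3K27ac of 1763, and held no palindrome but a TGANNTCA variant 393 bp upstream of the start. That variant is shown as the motif in the highest scored V5 promoter peak of the phosphodiesterases (chr17:8524935-8525022, plus strand, mm10, variant in capitals).
Pde10a: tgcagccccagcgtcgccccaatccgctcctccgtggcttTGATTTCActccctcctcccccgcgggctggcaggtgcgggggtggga

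Pde4d, a cAMP-specific phosphodiesterase with many promoters, had 5 V5 promoter peaks, the most of any of the 47 genes. Their scores were 1346 (rank 806), 1241, 289, 76 and 67. The 1346 peak was 3540 bp wide and held the palindrome shown above. Pde7a, a cAMP-specific enzyme known from lymphocytes, had V5 of 651 at its first TSS with Pol2 of 1102 and H3K27ac of 1334. Pde8a, a cAMP enzyme of high affinity, had V5 of 241 with Pol2 of 270 and H3K27ac of 384, and none of the motifs. Pde4b had V5 of 174 and 50 at internal starts. Pde3a, a cAMP phosphodiesterase inhibited by cGMP and known from heart, vessels and oocytes, had only 49 (rank 10346 of 10665) beside a Pol2 score of 779 and an H3K27ac score of 1634. The V5 promoter scores of the phosphodiesterases thus ran from near the bottom of the list to rank 294 of 10665.

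Pde1c, a calcium- and calmodulin-stimulated phosphodiesterase, was the only member with a V5 promoter peak (score 289) and no Pol2 promoter peak. That peak lay near an internal start 199 kb into the gene and overlapped neither Pol2 nor H3K27ac. Its middle was 3545 bp from the nearest TSS and its nearer edge 2990 bp, so it entered the promoter window only at its edge. With windows of 1 kb, 12 of the 47 genes had a V5 promoter peak, beside 15.2% of coding genes.

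The remaining 11 phosphodiesterases had no V5 promoter peak. Pde2a, Pde3b, Pde4a, Pde7b and Pde8b had Pol2 and H3K27ac, with Pol2 scores from 98 (Pde8b) to 599 (Pde3b). Pde1a, Pde5a, Pde9a and Pde11a had H3K27ac alone, with scores from 53 (Pde11a) to 215 (Pde1a). Pde1b and Pde4c had no promoter peak. Pde4a, a cAMP-specific enzyme related to Pde4b and Pde4d, came closest to a V5 call, with a V5 peak of 253 lying 3814 bp from a TSS. Pde5a, the target of sildenafil, had no V5 peak within 189007 bp of a TSS.

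In PKA itself, 4 of 9 genes had a V5 promoter peak, and each of these 4 also had Pol2 and H3K27ac. Prkaca and Prkacb, the catalytic subunits, had V5 scores of 289 (rank 4261) and 739 (rank 1738), Pol2 of 975 and 1134, and H3K27ac of 1469 and 1728. Among the regulatory subunits, Prkar1a, whose loss causes Carney complex in people, had V5 peaks of 280 and 207, and Prkar2a had 84. Prkar1a also had the highest H3K27ac promoter score of the 47 genes, 6593 (rank 59 of 27552), and a Pol2 score of 3054 (rank 782). The Prkacb peak held a TGANNTCA variant 393 bp upstream of a TSS and 318 bp from the middle of the peak. It is shown as the motif in the highest scored V5 promoter peak of the PKA genes (chr3:146813339-146813426, minus strand, mm10, variant in capitals).
Prkacb: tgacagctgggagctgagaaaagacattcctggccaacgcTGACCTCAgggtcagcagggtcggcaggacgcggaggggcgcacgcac

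The regulatory subunits Prkar1b and Prkar2b and the inhibitor peptides Pkia and Pkig had Pol2 and H3K27ac at promoters without V5. Their Pol2 scores were 434, 686, 150 and 282. The third inhibitor, Pkib, which like the others binds the free catalytic subunit, had no promoter peak in any list and a V5 body peak of 94. Pkia was the member farthest from the fusion, with the nearest V5 peak 1025673 bp from its TSSs.

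Among the anchoring proteins the share with V5 at a promoter, 2 of 10, was near the 16.6% of coding genes. Of the 10 genes, 8 had a Pol2 promoter peak with a median best score of 1744, beside 912 for coding genes, and 9 had H3K27ac with a median of 1317, beside 863. The V5 peaks were at Akap11 and Akap12. Akap12, also called gravin and a scaffold for PKA and protein kinase C, had V5 of 301 (rank 4108), Pol2 of 127 and H3K27ac of 446. Akap11, which binds PKA and glycogen synthase kinase, had V5 of 84 (rank 9095) beside Pol2 of 2028 and H3K27ac of 1537. The Akap12 peak held a TGANNTCA variant 610 bp upstream of the start, shown as the motif in the highest scored V5 promoter peak of the anchoring proteins (chr10:4265726-4265813, plus strand, mm10, variant in capitals).
Akap12: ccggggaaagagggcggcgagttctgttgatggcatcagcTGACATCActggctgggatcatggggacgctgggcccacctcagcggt

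Akap1, Akap7, Akap8, Akap9, Akap10 and Akap13 had Pol2 and H3K27ac without V5. Akap13, a scaffold that also activates RhoA, had the highest Pol2 promoter score of all 47 genes, 3744 (rank 469), and no V5 peak within 57514 bp of a TSS. Akap6, a scaffold of the nuclear envelope in muscle, had H3K27ac alone with a score of 57, and Akap5 had no promoter peak. The nearest V5 peaks to these 8 genes lay from 23030 bp (Akap10) to 328033 bp (Akap6) from a TSS.

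Over the whole set, 18 genes (38.3%) had Pol2 and H3K27ac at promoters without V5, beside 36.3% of coding genes. A further 6 genes had H3K27ac alone (12.8%, beside 5.87%), and 7 had no promoter peak in any list (14.9%, beside 39.9%). The share with Pol2 and H3K27ac but no V5 was therefore close to that of coding genes. The median best V5 promoter score was 278 over the 16 members with a peak, from 49 to 2615, beside 196 over the 3640 coding genes with a peak. The median best Pol2 and H3K27ac promoter scores were 779 and 538, both below the 912 and 863 of coding genes.

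In gene bodies, V5 was found in 11 of the 47 genes (23.4%), beside 7.10% of coding genes, and 8 of these 11 were phosphodiesterases. The members with body peaks were Adcy2, Pde1a, Pde1c, Pde3a, Pde4b, Pde4d, Pde7a, Pde7b, Pde10a, Prkar2b and Pkib. Pol2 body peaks were present in 10 members (21.3%, beside 11.2%) and H3K27ac body peaks in 18 (38.3%, beside 13.8%). Counting promoter and body together, 20 members (42.6%) had a V5 peak, beside 21.1% of coding genes. The 11 genes held 83 V5 body peaks, of which 31 were in Pde4d, 19 in Pde10a, 8 each in Adcy2 and Pde4b, 7 in Pde3a, 3 in Pde1a, 2 each in Pde1c and Pde7b, and 1 each in Pde7a, Prkar2b and Pkib.

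Body length differs greatly between these genes, and the comparison with coding genes depended on it. Bodies over 300 kb held V5 in 6 of 8 members, beside 49.7% of coding genes, and bodies of 100 to 300 kb in 2 of 14, beside 33.1%. For bodies of 30 to 100 kb it was 3 of 14, beside 12.9%, and for shorter ones 0 of 11, beside 1.77%. The share of members was thus above that of coding genes over 300 kb and from 30 to 100 kb, and below it from 100 to 300 kb and under 30 kb. Per 100 kb of body, the 47 genes held 1.11 V5 peaks, beside 0.376 over all coding genes. The phosphodiesterases held 1.55, the cyclases 0.707, the PKA genes 0.377 and the anchoring proteins 0. By body length, the members held more than coding genes only over 300 kb, 1.64 beside 0.316. From 100 to 300 kb they held 0.445 beside 0.476, from 30 to 100 kb 0.356 beside 0.393, and below 30 kb 0 beside 0.285. Without Pde4d and Pde10a, a choice made after the values were seen, the 45 other genes held 0.585.

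**Figure D3:**
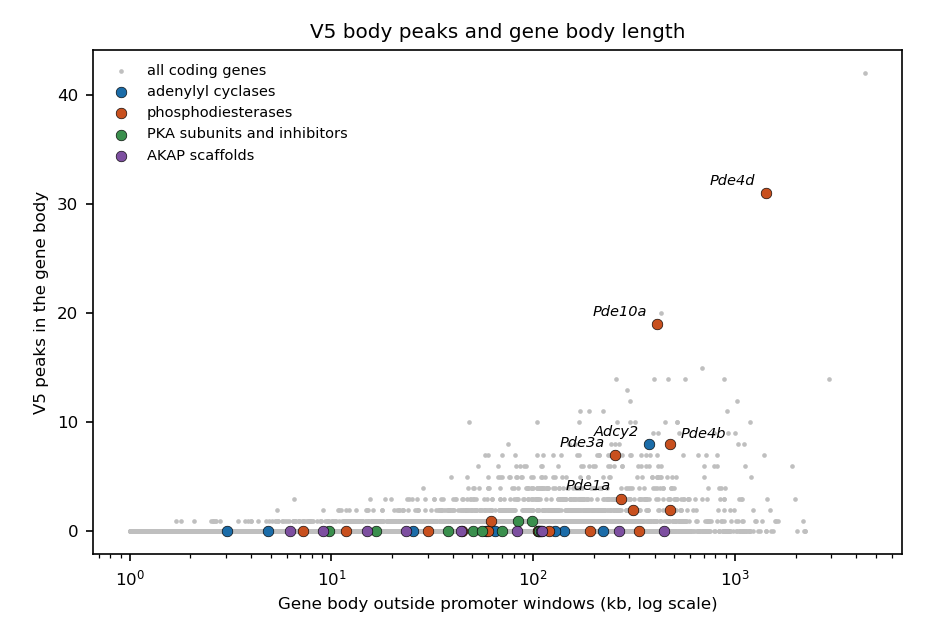
V5 peaks in the gene body (y axis) against body length outside promoter windows (x axis, kb, log scale) for coding genes with a body of at least 1 kb (grey) and the 47 genes (coloured by subgroup). Pde4d with 31 peaks and Pde10a with 19 stand high for their length, while most members lie at 0.

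By number of V5 body peaks, Pde4d ranked 2 and Pde10a 4 of 21938 coding genes. The gene at rank 1 was Gm20388, a predicted gene with 42 peaks in 4432 kb. A body peak was counted for every gene whose span it overlapped, so peaks in so long a span may also belong to other genes. Per length, Pde4d held 2.18 peaks per 100 kb, which ranked 105 of the 2063 coding genes with a body of at least 100 kb, and Pde10a 4.6, which ranked 17. Pde3a held 2.75 (rank 74), Adcy2 2.12 (rank 109) and Pde4b 1.67 (rank 165). For Pde4d the place near the top by number was thus not matched per length.

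The 10 highest scored V5 body peaks of the set lay in 3 genes, 7 of them in Pde4d, 2 in Pde10a and 1 in Adcy2. Those of Pde4d scored 4404 (rank 90), 4384, 3741, 3710, 2596, 2315 and 2077, those of Pde10a 3154 (rank 214) and 2825, and that of Adcy2 2999 (rank 235). The highest scores of the other genes were 1047 in Pde4b, 739 in Pde3a, 469 in Pde1a, 351 in Pde7b, 338 in Pde1c, 301 in Pde7a, 142 in Prkar2b and 94 in Pkib. The median best body score over the 11 genes was 469, beside 326 over the 1557 coding genes with a V5 body peak.

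The sequences under the 3 highest scored body peaks are shown because they carry the highest V5 scores of the set outside promoters, each on the plus strand of Pde4d (mm10), with the motif in capitals. The peaks of 4404 and 3741 held the palindrome, and that of 4384 held an AP1 motif, which reads TGACTCA on this strand and TGAGTCA on the other. The copy under the 4404 peak lay in an exon of the non-coding transcript Pde4d-217, 3990 bp downstream of its start, and that under the 3741 peak in the untranslated end of Pde4d-207, so only 30 bases are printed for each.
Score 4404, chr13:109761196-109761225: acactatggccTGACGTCAgcagctagcta
Score 4384, chr13:109279336-109279422: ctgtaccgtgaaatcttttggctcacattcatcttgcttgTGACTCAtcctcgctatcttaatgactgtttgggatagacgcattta
Score 3741, chr13:109951596-109951625: ggacgtggacgTGACGTCAgcttggcagag

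Strings of TGA or TCA units are shown for a pair of peaks that held no palindrome. The V5 peak of 3710 in an intron of Pde4d held a string of 14 TGA or TCA units, and that of 3154 in an intron of Pde10a a string of 6. The same peaks also held TGANNTCA variants, 2 in Pde4d and 4 in Pde10a. The Pde10a string itself consists mostly of such variants. Both strings are printed on the plus strand (mm10), the whole string in capitals.
Pde4d, chr13:108601479-108601532: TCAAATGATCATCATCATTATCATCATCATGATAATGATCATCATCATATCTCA
Pde10a, chr17:8815514-8815545: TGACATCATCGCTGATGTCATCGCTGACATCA

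Across the 83 V5 body peaks of members, 10 held the palindrome (12%), beside 6.06% of the 3251 V5 body peaks of coding genes. The AP1 motif was in 24 (28.9%, beside 31.9%), another TGANNTCA in 47 (56.6%, beside 48%) and a string in 16 (19.3%, beside 13.1%), while 19 held none of these (22.9%, beside 30.6%). A peak can hold several motifs, and a wider peak has more sequence to search. Body peaks had a median width of 860 bp in members, beside 700 bp for coding genes. In the 24 promoter peaks, AP1 was in 3 (12.5%, beside 13.8%), another TGANNTCA in 8 (33.3%, beside 22.4%), a string in 0 (beside 3.98%) and no motif in 10 (41.7%, beside 57.9%). The copies of the palindrome lay from 43 to 111 bp from the middle of promoter peaks and from 36 to 429 bp from the middle of body peaks. In the central 200 bp, an equal length in every peak, 2.41% of body peaks and 16.7% of promoter peaks of members held the palindrome. For coding genes these shares were 3.26% and 9.46%, so at equal length only the promoter share was higher in members.

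The palindrome in body peaks was spread over Pde1c, Pde3a, Pde4b, Pde4d, Pde7b and Pde10a, with 4 of the 10 peaks in Pde4d and 2 in Pde10a. All 6 are phosphodiesterases, which held 73 of the 83 V5 body peaks. Including promoters, 15 V5 peaks of 10 genes held 15 copies. No V5 peak of Prkaca, Prkacb, Prkar2a, Akap11 or Akap12 held it.

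**Figure D4:**
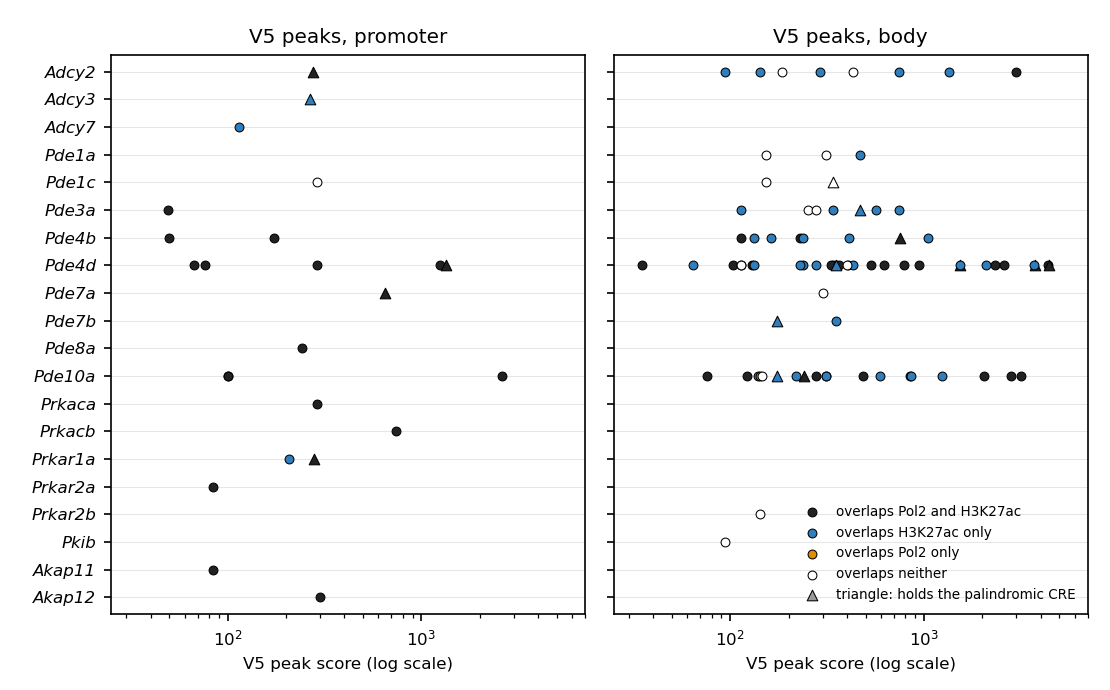
Score of every V5 peak (x axis, log scale) of the 20 genes that had any (y axis), at promoters (left) and in bodies (right). Fill gives the overlap with Pol2 and H3K27ac peaks, and triangles hold TGACGTCA. Most promoter peaks overlap both marks, whereas body peaks outside Pde4d, Pde10a and Pde4b mostly overlap H3K27ac alone or neither.

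Most V5 promoter peaks of the set overlapped active chromatin. Of the 24, 23 overlapped H3K27ac (95.8%, beside 95.2% for coding genes) and 20 overlapped Pol2 (83.3%, beside 85.5%), so the members were like coding genes here. Of the 83 body peaks, 68 overlapped H3K27ac (81.9%, beside 67.6%) and 33 overlapped Pol2 (39.8%, beside 27.5%). Without Pde4d and Pde10a these shares were 66.7% and 12.1%. In Pde4d, 29 of 31 V5 body peaks overlapped H3K27ac and 18 overlapped Pol2, and in Pde10a 17 and 11 of 19. Every one of the 8 in Pde4b overlapped H3K27ac. In contrast, the single body peaks of Pde7a, Prkar2b and Pkib and both of Pde1c overlapped neither mark.

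Where V5, Pol2 and H3K27ac fell along the long genes was compared by start site, with TSSs of a gene within 3 kb of each other joined. The 47 genes had 175 such sites, and 40 genes had 2 or more, 168 sites in all. Of these 168, 48 had a Pol2 peak (28.6%, beside 30.1% for coding genes with 2 or more sites), 66 an H3K27ac peak (39.3%, beside 33.5%) and 19 a V5 peak (11.3%, beside 8.50%). Of the 19 sites with V5, 16 also had Pol2. V5 was found at the first site of 11 of the 47 members, and only at a later site in 5 members (Adcy3, Adcy7, Pde1c, Pde4b and Pde4d). Those 5 were of 14 members with several sites and a V5 promoter peak (35.7%, beside 20.5% of such coding genes). In all, 10 of 128 later sites had V5 (7.81%, beside 3.80%), and 4 of these 10 were in Pde4d.

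Pde4d has 13 start sites over 1504 kb, and V5 was at 4 of them, each inside the gene, 811, 1236, 1453 and 1485 kb from the 5′ end. Their best V5 scores were 67, 1346, 289 and 1241. All 4 had Pol2 and H3K27ac, with Pol2 scores of 745, 1082, 1022 and 1022. A single Pol2 peak 64200 bp wide spanned the sites at 1453, 1473 and 1485 kb, so Pol2 cannot be assigned to any of these. The first site had H3K27ac of 57 and neither Pol2 nor V5. Between 236 and 709 kb from the 5′ end no V5 peak was listed, and the body peaks lay before and after that stretch.

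Counted from the start site with the highest Pol2 promoter score, Pde4d had 14 Pol2 peaks before that site (1236 kb) and 29 in the 267 kb after it. Its V5 peaks were 25 before and 11 after, and its H3K27ac peaks 33 and 25. Per 100 kb, V5 peaks were at 2.02 before and 4.12 after the site, H3K27ac peaks at 2.67 and 9.35, and Pol2 peaks at 1.13 and 10.8. All 3 lists were thus denser after the site. The margin was widest for Pol2, but it is not independent of the choice of site, which was made by Pol2 score. Peak counts also depend on width, since the Pol2 peak of 64200 bp after the site counts as a single peak. By their widths, peaks covered 17.4% of Pde4d for Pol2, 11.2% for H3K27ac and 2.8% for V5, the 3 kb on either side included.

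Pde10a has 8 start sites over 461 kb, and V5 was at the first site (2615) and at the site 276 kb into the gene (101 and 100). The later site had the higher Pol2 score, 1638 against 488, and the higher H3K27ac score, 3299 against 1763, while its V5 scores were much the lower. After that site 49 Pol2 peaks were listed and before it 2. By their middle, its V5 peaks were 11 after and 11 before, or 5.95 and 3.98 per 100 kb, against 26.5 and 0.724 for Pol2. The site was chosen as the start with the highest Pol2 promoter score, so the Pol2 difference is not independent of that choice. The V5 peaks of 2040 and 3154 lay 285 and 290 kb from the 5′ end and overlapped the same H3K27ac peak, 16980 bp wide, that covers the start at 276 kb.

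**Figure D5:**
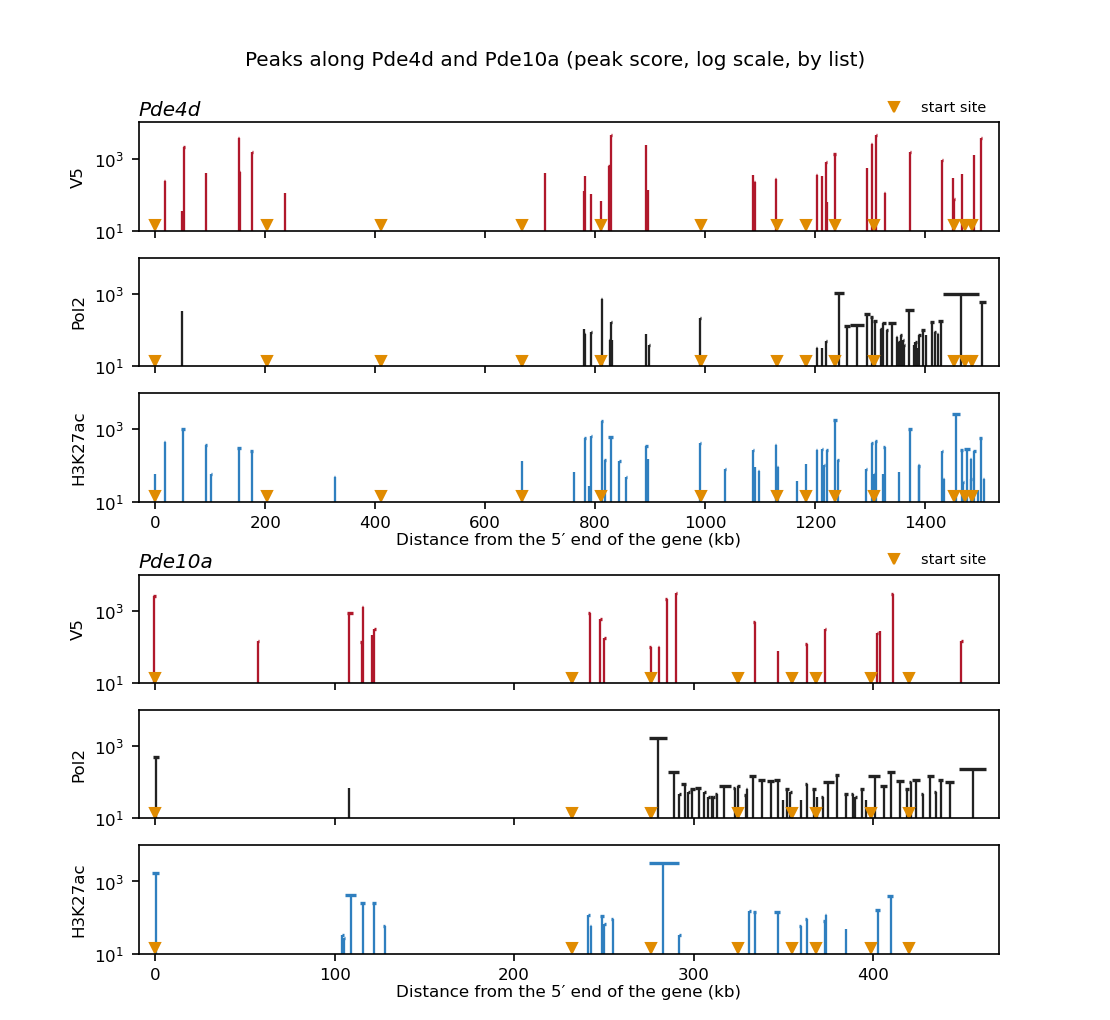
Peaks along Pde4d (upper 3 panels) and Pde10a (lower 3 panels) by distance from the 5′ end of the gene (x axis, kb), with the peak score on a log scale (y axis) for V5, Pol2 and H3K27ac and triangles at start sites. Horizontal strokes are peak widths. In Pde10a 49 of 51 Pol2 peaks follow the site at 276 kb, which was chosen by its Pol2 promoter score. V5 peaks lie on both sides of that site.

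Pde4b, a cAMP-specific phosphodiesterase known from immune and brain cells, showed V5 only at the last 2 of its 7 sites, at 483 and 500 kb from the 5′ end (scores 174 and 50). Pol2 at these sites scored 1614 and 136 and H3K27ac 3022 and 616, while the first 5 sites had no Pol2. A Pol2 body peak of Pde4b scored 4634 (rank 261), the highest Pol2 score of the set. The 8 V5 body peaks lay from 408 to 506 kb, on both sides of these sites. In Adcy2 the 8 V5 body peaks lay from 164 to 325 kb from the start, 6 of them overlapping H3K27ac and 1 overlapping Pol2. The 7 in Pde3a lay from 132 to 247 kb, and none overlapped Pol2.

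Beyond the 47 genes, 85 other genes of the pathway from a fixed list were counted in 6 sets. V5 promoter peaks were present at 17 of the 85 (20%), Pol2 at 44 and H3K27ac at 51, near the 16.6%, 53.5% and 58.6% of coding genes. In the transcription arm, the factors, coactivators and salt-inducible kinases that act at the end of the pathway, 7 of 11 had V5 (Creb1, Crem, Atf1, Crebbp, Sik1, Sik2 and Sik3), and all 11 had Pol2 and H3K27ac. Of 11 G protein subunits 4 had V5, of 27 receptors coupled to the stimulatory G protein 3, of 15 effectors other than PKA 1, of 14 other anchoring proteins 2 and of 7 other phosphodiesterases 0. The 10 highest V5 promoter scores were led by 19716 (rank 2 of the whole V5 list) at Crem. The others were 3795 at Creb1, 2558 at Rapgef4, 2059 at Sik1, 1292 at Gnas, 1000 at Sik3, 512 at Drd1, 449 at Htr4, 376 at Sik2 and 318 at Crebbp. Only Pde10a among the 47 genes had a promoter score above that of Rapgef4, which encodes the exchange factor EPAC2.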

How the data were processed

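The authors aligned ChIP-seq reads to mm10 with BWA (0.7.10-r789), removed duplicate reads, called peaks against input with MACS2 (2.2.6), with its broad option for H3K27ac, and discarded denylisted regions. The deposited lists give each peak a position and a score from the authors of unstated scale. How replicates were combined for the peak lists is not given in the sources used here, and the methods name more samples for V5 and Pol2 than the 4 labelled. Depth per sample was not analysed here, so peaks carry no interval.

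Peaks were assigned to GENCODE vM21 genes with Python 3.11.15, numpy 2.4.6, pandas 2.3.3 and pysam 0.24.0, and motifs read from GRCm38.p6, the assembly of mm10. No peak extended beyond a chromosome end. The members and lists were chosen with earlier results of these data known. Values in full were given for members with a V5 promoter peak or with 1 of the 10 highest scored V5 body peaks. No test was made. The overlap, class, length and motif functions recovered 100% of simulated answers. Alternatives covered windows, TSSs, peak middles, scores and single genes.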

Additional observations from a re-analysis of the deposited data

How the results depend on the processing

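Of 65 alternatives over 14 results, 54 left a count or density within 1.5 times the reported value or a percentage within its 95% Wilson interval, and 9 did not. The other 2 concern a median score, for which no such limit was set. The interval treats peaks as independent, although 31 of the 83 V5 body peaks were in Pde4d, and it is wide for the 24 promoter peaks. A share within it could therefore still differ much. With the upper 50% of V5 peaks by score, the palindrome was in 38.5% of promoter peaks of members, in place of 20.8%, beside 22.5% for coding genes. With the upper 50% of each list by score, 8 members in place of 15 had all 3 promoter peaks, beside 6.39% of coding genes. Over the whole gene span, 18 members had a V5 peak in place of 11, beside 20% of coding genes, and 7 when only V5 peaks overlapping H3K27ac counted, beside 5.02%. The median best V5 promoter score was 284 with a window of 1 kb and 277 with 5 kb, in place of 278. V5 body peaks per 100 kb were 0.585 without Pde4d and Pde10a and 0.484 without Pde4b as well, in place of 1.11. Of V5 body peaks, 72.3% overlapped H3K27ac by their middle base and 66.7% without Pde4d and Pde10a, in place of 81.9%. Pol2 overlap was 12.1% without both genes, in place of 39.8%. The palindrome was in the central 200 bp of 2.41%, in place of 12% anywhere in the peak. Removing genes gives these values by construction, and the cause of the others was not tested. The 12 alternatives without genes or low-scored peaks, or away from other TSSs, were chosen after seeing the data. V5 promoter counts ran from 11 to 17 of 47, always above the share of coding genes. A gene without a listed peak may be bound below the threshold of the peak calls, since the lists hold no values for such places.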
